A study of Mus musculus with 12 samples.

Results

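Genes of the mitochondrial respiratory chain and the ATP synthase were followed in RNA from sorted thymic *i*NKT cells. These genes were taken from the deposited CPM table by symbol, as those that begin with Nduf, Sdh, Uqcr, Cox4 to Cox8 or Atp5 and, for the mitochondrial genome, mt-Nd, mt-Co, mt-Cyt or mt-Atp, with a mean of 5 CPM or more over the 12 columns and without assembly factors (Sdhaf, Ndufaf) and pseudogenes. Of 48709 rows, 98 carried such a symbol and 89 reached the level, 76 encoded in the nucleus and 13 in the mitochondrion. Of the 76 nuclear genes, 36 belong to complex I, 4 to complex II, 8 to complex III, 12 to complex IV (*Ndufa4*, first assigned to complex I, is counted there) and 15 to the ATP synthase, complex V. The remaining gene, *Atp5sl*, is named after an ATP synthase subunit without being one. The level of 5 CPM fell in a wide gap, with *Atp5s* at 4.56 CPM just below it and *Ndufa5* at 39.9 CPM the lowest gene above it. All 89 genes passed the filter on low counts in each comparison.

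RNA was sequenced in 12 libraries, 3 per sorted pool (NK1.1- or NK1.1+) and genotype (WT or miR-155KI), all from thymus of C57BL/6J mice aged 7 weeks. The sorted *i*NKT cells carry an invariant TCR for lipids on CD1d, and NK1.1 marks the mature, mostly *i*NKT1, cells of the thymus. The miR-155KI mice carried 2 copies of a Rosa26 miR-155 allele that CD4Cre switches on from the double-positive stage, so that conventional T cells of these mice carried the switch too. The WT mice were littermates that carried the Rosa26 allele without CD4Cre, and thymocytes of both were depleted of CD8+ cells before they were sorted by TCRβ, a CD1d tetramer, CD44 and NK1.1. The paper's methods name a TruSeq kit and pooled replicates and the labels a SMART-Seq kit and separate libraries, none tied to a named mouse, so that the p-values measure the spread between libraries, part of which may be technical.

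Total counts per library ran from 12819476 to 20518257. Levels are given as TMM-normalized CPM, that is, counts relative to library size after a correction for composition. *Mir155hg*, the host transcript of miR-155, lay between 9.64 and 13.7 CPM in WT and between 95.1 and 144 CPM in miR-155KI libraries. *Klrb1c*, which encodes NK1.1, was 59.4 to 79.8 and 36.6 to 50.6 CPM in WT and miR-155KI NK1.1- cells against 358 to 773 and 464 to 649 CPM in NK1.1+ cells, and *Zbtb16*, which encodes PLZF, was at least 216 CPM in all 12 libraries. WT replicates 2 and 3 of both pools held the female transcript *Xist* at 135 to 237 CPM, while WT replicate 1 and the miR-155KI libraries lay between 8.18 and 34.9 CPM. By this transcript, genotype went partly with sex, which is not labelled per library, and their effects cannot be fully told apart.

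The respiratory chain sits in the inner mitochondrial membrane. Complex I takes electrons from NADH and complex II from succinate, complex III passes them from ubiquinone to cytochrome c, and complex IV hands them to oxygen, while complexes I, III and IV pump protons whose return through complex V makes ATP. The genome of the mitochondrion encodes a core set of hydrophobic subunits of complexes I, III, IV and V and none of complex II, and all other subunits are made from nuclear genes, many of which are controlled by the transcription factor NRF1 and by GABP. Quiescent T cells rely largely on this machinery, and T cells that begin to divide add glycolysis to it.

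Sequences of the regulator overexpressed in these mice and of the sites it could pair with are given first, since the genotype comparisons bear on them. In mature miR-155, from RefSeq (GRCm38.p6, chr16:84714143-84714165, plus strand), the seed, bases 2 to 8, is in capitals. An 8-base match, the complement of the seed followed by A, was present in an annotated 3′ UTR (GENCODE M21, GRCm38) of 3 nuclear genes, 3.95% of the 76, against 3.4% of all 21173 genes with a 3′ UTR. A 7-base match was present in 8 of the nuclear genes, 10.5%, against 9.54% of all genes. The match is in capitals in the sites below, which lie at chr3:32749043-32749071 on the plus strand and at chr1:63143628-63143656 and chr10:80403007-80403035 on the minus strand.
mmu-miR-155-5p: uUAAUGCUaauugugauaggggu
Ndufb5: gaatgtcattAGCATTAAgtcaggtgggt
Ndufs1: attgtgtgcaAGCATTAActagtttaata
Uqcr11: tgatgggtgcAGCATTAAaccttattctt

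Promoters were searched for the letters of factors that act on these genes, because 72 of the 76 nuclear genes had a fitted fold change below 0 between the WT pools. RefSeq promoters of 300 bases, from 250 before to 50 after the gene's start, matched 65 of the 76 nuclear genes by symbol. A gene was counted where any of its promoters matched. CGCANGCG, the NRF1 half-site pair, was found on either strand in 26 of the 65, 40.0%, against 9.22% of all 27025 genes with a promoter and 21.6% of those with 5 CPM or more. ATGGCGGC, the core of a YY1 site, was found in 10.8% of the 65 and 6.65% of genes at that level, CCGGAAGT, an ETS site of the kind GABP binds, in 7.69% and 10.7%, and TGACGTCA, the cyclic AMP response element, in 6.15% and 3.92%. GGGGCGGGG, an SP1 box, was found in 15.4% of the 65 and in 25.0% of genes at that level. Of the promoters below, in which the NRF1 letters are in capitals, *Ndufs5* and *Uqcr10* belong to genes that were lower in WT NK1.1+ cells and *Sdha*, with 3 matches, to a gene that hardly moved. They lie on the minus strand of GRCm38.p6 at chr4:123718137-123718436, chr11:4704295-4704594 and chr13:74350191-74350490.
Ndufs5: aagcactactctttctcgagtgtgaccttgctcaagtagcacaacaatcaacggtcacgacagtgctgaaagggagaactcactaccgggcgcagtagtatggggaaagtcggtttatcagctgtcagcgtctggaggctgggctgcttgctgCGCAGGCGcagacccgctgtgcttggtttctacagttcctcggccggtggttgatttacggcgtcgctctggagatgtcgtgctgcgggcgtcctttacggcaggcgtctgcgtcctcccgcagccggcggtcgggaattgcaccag
Uqcr10: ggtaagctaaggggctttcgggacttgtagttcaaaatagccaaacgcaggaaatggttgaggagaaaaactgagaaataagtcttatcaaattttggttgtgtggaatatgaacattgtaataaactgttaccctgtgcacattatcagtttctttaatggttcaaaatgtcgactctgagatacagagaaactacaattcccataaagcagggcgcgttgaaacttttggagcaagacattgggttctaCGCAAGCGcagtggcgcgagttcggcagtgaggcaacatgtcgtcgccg
Sdha: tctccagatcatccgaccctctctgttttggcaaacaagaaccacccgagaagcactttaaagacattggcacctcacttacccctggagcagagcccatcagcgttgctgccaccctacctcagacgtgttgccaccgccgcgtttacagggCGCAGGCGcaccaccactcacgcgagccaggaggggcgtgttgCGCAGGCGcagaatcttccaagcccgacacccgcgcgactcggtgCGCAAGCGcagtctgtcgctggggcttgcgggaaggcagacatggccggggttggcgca

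A match is a run of letters and not a shown binding site. Among genes with a promoter, the NRF1 letters were present in 8 of 22 called lower in WT NK1.1+ cells (36.4%), in 18 of 43 that were not called (41.9%), and in 1 of 6 called lower in both genotypes (16.7%, *Uqcr10*).

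Per kilobase of transcript, the mitochondrial genes were far more abundant than the nuclear ones. The length used was the median over a gene's annotated protein-coding transcripts (GENCODE M21 basic set). Which of them these cells used was not measured. Over the 12 libraries, the median gene of the mitochondrial genome reached 1497 CPM per kb and the median nuclear gene 184 CPM per kb (74 genes with an annotated length). Among mitochondrial genes, *mt-Atp6* (subunit a of the ATP synthase) led with 3972 CPM per kb, followed by *mt-Co3* with 3803 and *mt-Atp8* with 3197 CPM per kb. *mt-Nd6*, the only gene of the 13 encoded on the other strand, was lowest with 141 CPM per kb, 28.1-fold below *mt-Atp6*. These genes are cut from long shared transcripts, and *mt-Atp8* with *mt-Atp6*, *mt-Nd4l* with *mt-Nd4* and *mt-Nd6* with *mt-Nd5* overlap, so that counts of such neighbours may not be separate. *Gm10925* and *Gm28437*, 2 of the annotated copies of these genes in the nuclear genome, held 0 counts in every library.

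Among nuclear genes, the subunits of complexes IV and V were the most abundant, with medians of 398 and 340 CPM per kb, against 204 for complex III, 113 for complex I and 101 for complex II. *Cox8a*, a small subunit of complex IV, was highest at 1015 CPM per kb, and *Ndufb2*, an accessory subunit of complex I, was lowest at 21.6 CPM per kb. The place of *Ndufb2* depends on its median annotated length of 2413 bases. The 3 genes for subunit c, the ring of the ATP synthase that turns, encode the same mature protein. Per kilobase, *Atp5g2* (662 CPM per kb) and *Atp5g3* (225 CPM per kb) lay above *Atp5g1* (76.1 CPM per kb). This order of *Atp5g3* and *Atp5g1* rests on median annotated lengths of 718.5 and 2675.5 bases. In deposited CPM, not divided by length, *Atp5g2* had 389, *Atp5g1* 205 and *Atp5g3* 162. Of complex IV, the general isoforms were used. *Cox4i1*, *Cox6a1*, *Cox6b1*, *Cox7a2* and *Cox8a* reached 834, 606, 622, 299 and 1015 CPM per kb. Their partners known from heart, muscle, lung or testis were among the 9 genes under the level. Over all 12 libraries together, *Cox4i2* had 6 counts, *Cox6a2* 2, *Cox8b* 8, *Cox8c* 1 and *Cox7b2* 7, and *Ndufa4l2*, a hypoxia-induced relative of *Ndufa4*, had 17, while *Cox7a1* had 144 and *Cox6b2* 212.

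Some counts may be shared with other genes. Near-identical copies elsewhere in the genome were found for 24 of the 76 nuclear genes, and in 2 of them (*Cox5b* and *Uqcr10*) the copies held reads worth more than 1% of the gene's own. A further gene overlaps 36 of the 76, among them *Atp5o*, of which an annotated model reaches into *Donson*, and since no source used here states that strand was used in counting, reads of antisense partners cannot be told apart.

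The nuclear genes took a smaller share of all counts in NK1.1+ than in NK1.1- cells. The 76 genes held 1.75, 1.54 and 1.77% of the counts in the 3 WT NK1.1- libraries (1.68 ± 0.127, SD, n = 3) and 1.45, 1.24 and 1.19% in the WT NK1.1+ libraries (1.30 ± 0.135). In miR-155KI they held 1.58, 1.58 and 1.62% in NK1.1- (1.59 ± 0.0225) and 1.34, 1.37 and 1.29% in NK1.1+ cells (1.34 ± 0.0403). Within each genotype, every NK1.1+ library lay below every NK1.1- library. The 13 mitochondrial genes showed no such order. They held 2.17, 1.98 and 1.13% and 1.59, 1.34 and 1.39% in WT NK1.1- and NK1.1+ libraries, and 1.98, 2.20 and 1.98% and 2.17, 1.64 and 2.17% in miR-155KI. WT NK1.1- replicate 3 stood apart at 1.13%, with all 13 genes at their lowest of the 12 libraries, and its ratio of mitochondrial to nuclear counts was 0.639 where the other 11 libraries lay between 1.07 and 1.68. Results that rest on that library are given with and without it. In such bulk RNA, fewer cells of a type and less RNA per cell cannot be told apart.

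**Figure D1:**
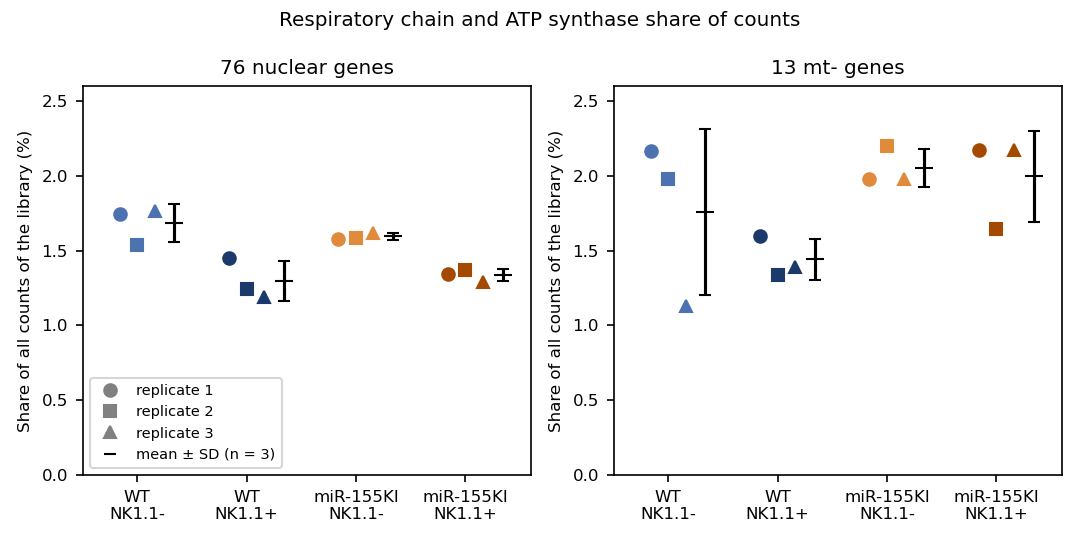
Share of all counts in each of the 12 libraries (y axes, percent of counts) taken by the 76 nuclear genes and by the 13 mitochondrial genes, by group, with the mean and SD of 3 libraries. NK1.1+ libraries lie below NK1.1- libraries of the same genotype in the nuclear share, and WT NK1.1- replicate 3 has the lowest mitochondrial share.

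The pools were first compared within WT mice. Genes of every complex of the chain were lower in WT NK1.1+ cells, and 0 were called higher by edgeR (0 at an unadjusted p under 0.05). Of 76 nuclear genes, 72 had a fitted fold change below 0 (NK1.1+ against NK1.1- cells) and 23 were called lower at an adjusted p under 0.05 from edgeR, where 10.9% of all genes tested were called lower, with a median log2 fold change of -0.38 against 0.0079 for all genes tested. At an unadjusted p under 0.05, 40 were lower (17.4% of all genes tested), and in 28 all 3 NK1.1+ libraries lay below all 3 NK1.1- libraries (18.6% of all genes tested). DESeq2 and limma-voom each called 21, where they called 11.9 and 10.8% of all genes tested lower. By complex, 10 of 36 genes were called in complex I, 1 of 4 in complex II, 4 of 8 in complex III, 4 of 12 in complex IV and 4 of 15 in complex V. The replicate numbers pair the WT pools, and with the number as a block 42 nuclear genes were called lower, where 15.2% of all genes were, and with the ratio of Y-linked to *Xist* counts as a covariate 46 (16.2% of all genes). The median log2 fold change lay between -0.51 and -0.28 when a library was left out. The count without the block depended on single libraries, with 4 and 5 genes called lower without NK1.1- replicates 1 and 3 (7.75 and 7.3% of all genes), 46, 5 and 2 without NK1.1+ replicates 1, 2 and 3 (12.5, 8.03 and 6.93% of all genes), and *Ndufs5* and *Uqcrq* called whichever of the 6 libraries was left out. Among the fits with these counts, only that without NK1.1+ replicate 1 called a larger share of the 76 than of all genes. Without NK1.1- replicate 2, most of the 23 kept their call, where 8.96% of all genes were called lower. Adjusted p without a further remark are from the fit without the block, and where the block changes a call its adjusted p is given too.

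**Figure D2:**
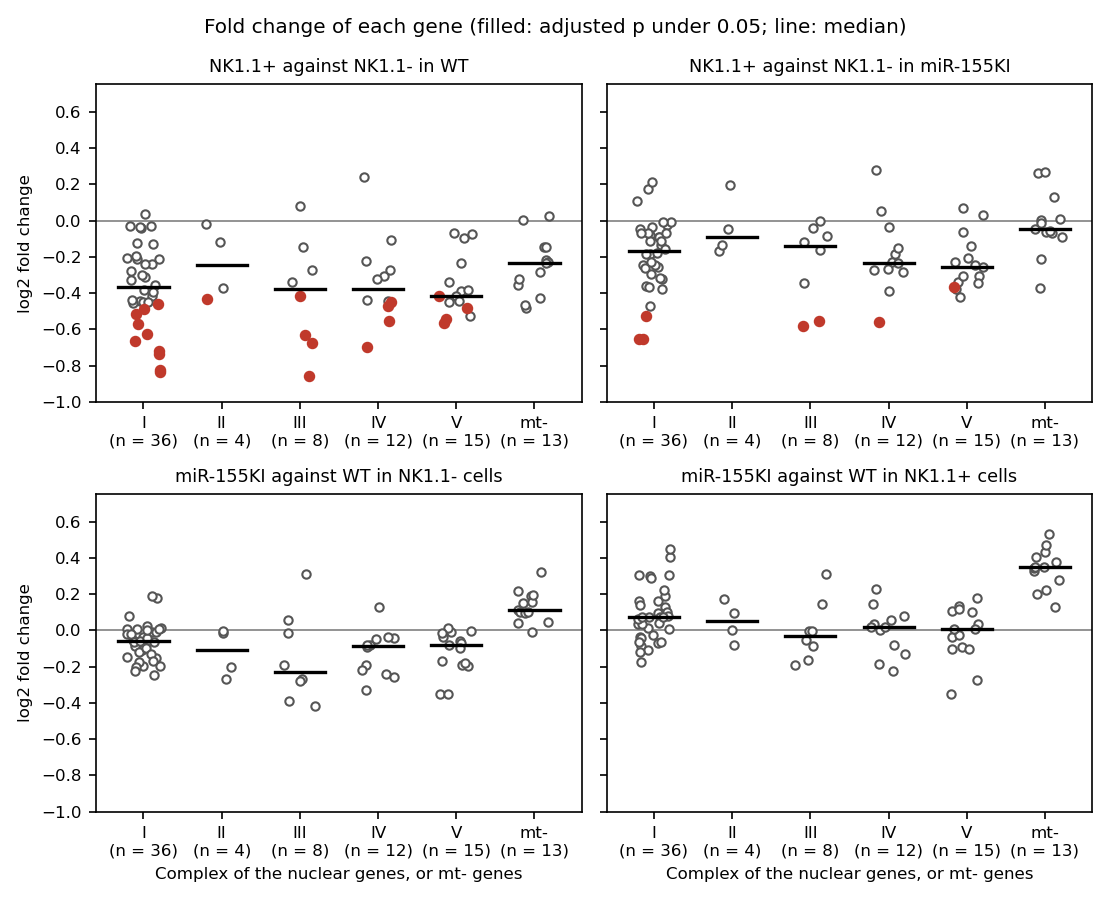
Log2 fold change (y axes) of each nuclear gene by complex and of each mitochondrial gene in the comparisons of pools (upper panels) and of genotypes (lower panels), with *Atp5sl* left out, filled points for an adjusted p under 0.05 from edgeR and lines for medians. Called genes are in the upper panels and all below 0, and the mitochondrial genes lie above 0 in miR-155KI against WT NK1.1+ cells.

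In complex III, the 4 genes called in WT encode small subunits and the Rieske protein. *Uqcrq*, a small subunit once described as a ubiquinone-binding protein, was 207, 149.9 and 232 CPM in WT NK1.1- and 130.4, 106 and 95.2 CPM in WT NK1.1+ libraries (log2 fold change -0.86 with a standard error of 0.17, edgeR adjusted p = 0.00501). In miR-155KI it was 163, 151 and 177 CPM and 119, 107 and 108 CPM (log2 fold change -0.55 with a standard error of 0.12, edgeR adjusted p = 0.0119). Every NK1.1+ library lay below every NK1.1- library in both genotypes. *Uqcr10*, another small subunit, was 212, 191 and 322 CPM in WT NK1.1- and 190.2, 138 and 150.1 CPM in WT NK1.1+ libraries (log2 fold change -0.63, adjusted p = 0.0465 from edgeR), a gene in which a near-identical copy, *4930481A15Rik*, holds reads equal to 10% of its counts. The groups did not overlap, though WT NK1.1+ replicate 1 lay only just below the lowest NK1.1- library. *Uqcrfs1*, the Rieske iron-sulfur protein, which carries the electron onward to cytochrome c1, was 149, 151 and 184 CPM against 126, 116 and 129 CPM (log2 fold change -0.42 with a standard error of 0.13, edgeR adjusted p = 0.0380). *Uqcr11*, a further small subunit taken up for its miR-155 site, was 127, 94.9 and 141 CPM against 99.9, 67.9 and 64.2 CPM (log2 fold change -0.68, adjusted p = 0.0315 from edgeR), and here the groups overlapped. The large core subunit *Uqcrc1* was 360.2, 348 and 457 CPM against 347, 312 and 284 CPM and was not called (log2 fold change -0.34, adjusted p = 0.114 from edgeR).

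In complex I, the called genes with the smallest p encode accessory subunits, which surround the catalytic core. *Ndufs5* was 78.7, 53.9 and 73.5 CPM in WT NK1.1- and 47.4, 38.2 and 32.4 CPM in WT NK1.1+ libraries (log2 fold change -0.83 with a standard error of 0.18, edgeR adjusted p = 0.00749), with no overlap. In miR-155KI its levels were 59.9, 60.5 and 70.1 CPM and 51.5, 52.9 and 58.3 CPM, a difference that was not called (log2 fold change -0.23, adjusted p = 0.344 from edgeR). The other members described here, *Ndufc1*, *Ndufc2* and *Ndufb6*, lie in the membrane arm, through which protons are pumped. *Ndufc2* was 97.0, 84.9 and 90.4 CPM and 73.1, 49.7 and 45.9 CPM in WT NK1.1- and NK1.1+ libraries (log2 fold change -0.72 with a standard error of 0.17, edgeR adjusted p = 0.0131) and 81.1, 82.0 and 94.7 CPM and 66.4, 55.5 and 57.3 CPM in miR-155KI (log2 fold change -0.53, adjusted p = 0.0325 from edgeR). *Ndufc1* was 80.4, 54.8 and 68.4 CPM and 51.2, 32.7 and 33.5 CPM in WT and 61.0, 63.7 and 72.1 CPM and 36.9, 49.3 and 38.9 CPM in miR-155KI, with log2 fold changes of -0.82 and -0.65 (adjusted p = 0.0136 and 0.0291 from edgeR). *Ndufb6* was 83.9, 70.2 and 77.0 CPM and 63.7, 43.4 and 41.8 CPM in WT and 64.7, 80.7 and 79.7 CPM and 40.9, 46.5 and 55.8 CPM in miR-155KI, with log2 fold changes of -0.66 and -0.65 (adjusted p = 0.0183 and 0.0278 from edgeR). None of these 3 genes overlapped between the pools in either genotype.

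Of the catalytic core of complex I, *Ndufv2* was called and 2 others described here were not in the fit without the block. *Ndufv2*, an iron-sulfur subunit taken up after its values were seen, was 126, 92.6 and 109.6 CPM in WT NK1.1- and 87.3, 64.2 and 65.5 CPM in WT NK1.1+ libraries (log2 fold change -0.63, adjusted p = 0.0173 from edgeR). *Ndufs1*, which holds a chain of iron-sulfur clusters, was 76.3, 80.7 and 63.8 CPM in WT NK1.1- and 78.6, 72.4 and 70.3 CPM in WT NK1.1+ libraries (log2 fold change -0.029 with a standard error of 0.14, edgeR adjusted p = 0.912). *Ndufv1*, which takes the electrons from NADH, had a log2 fold change of -0.40 and was called only with the replicate block (adjusted p = 0.0754 from edgeR without it and 0.0338 with it). The fitted fold change was below 0 for 35 of the 36 genes of the complex, the exception being *Ndufa6* (log2 fold change 0.037), an accessory subunit named after its values were seen.

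Complex II, which also belongs to the citrate cycle, held 1 called gene. This was *Sdhd*, a membrane anchor, at 152, 156 and 177 CPM in WT NK1.1- and 111, 128 and 128 CPM in WT NK1.1+ libraries (log2 fold change -0.43, adjusted p = 0.0280 from edgeR), named after its values were seen. The iron-sulfur subunit *Sdhb* was 235, 219 and 261 CPM against 228, 166 and 169.5 CPM (log2 fold change -0.37, adjusted p = 0.0964 from edgeR and 0.0286 with the block). The flavoprotein *Sdha*, which oxidizes succinate, was 263, 249 and 249 CPM against 274, 248 and 244 CPM (log2 fold change -0.02, standard error 0.11). Its libraries overlapped, and across the 12 libraries its profile was among the least like the mean of the other nuclear genes (r = -0.13, where the median gene had 0.81), a description over libraries that share groups and depth.

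In complex IV, *Cox7a2* was the gene with the smallest p. It was 274, 207 and 248 CPM in WT NK1.1- and 187, 139.8 and 133 CPM in WT NK1.1+ libraries (log2 fold change -0.70 with a standard error of 0.16, edgeR adjusted p = 0.00917) and 215, 236 and 248 CPM and 149, 164 and 161 CPM in miR-155KI (log2 fold change -0.56 with a standard error of 0.11, edgeR adjusted p = 0.00836), without overlap in either. Its relative *Cox7a2l* went the other way in level. It was 250.0, 255 and 260.4 CPM in WT NK1.1- and 348, 284 and 290.2 CPM in WT NK1.1+ libraries (log2 fold change 0.24, adjusted p = 0.203 from edgeR), and 253, 289 and 305 CPM and 279, 359.5 and 390.3 CPM in miR-155KI (log2 fold change 0.28, adjusted p = 0.229). It was the only nuclear gene with all WT NK1.1+ libraries above all WT NK1.1- libraries, and neither difference was called. *Cox5a* and *Cox6a1*, structural subunits around the catalytic core, were called lower in WT, from 285 ± 33.4 to 198 ± 31.7 CPM and from 416 ± 71.7 to 306 ± 30.4 CPM (SD, n = 3 libraries; fold changes of -0.56 and -0.47 on the log2 scale, adjusted p = 0.0187 and 0.0390 from edgeR). *Cox4i1*, *Cox5b*, *Cox6b1*, *Cox8a* and *Ndufa4* were not called, with log2 fold changes of -0.23, -0.31, -0.44, -0.11 and -0.32, and for *Cox5b* a near-identical copy, *Gm11273*, holds reads equal to 8.9% of its counts. With the block, *Cox6b1* and *Ndufa4* were called lower (adjusted p = 0.0102 and 0.0319 from edgeR).

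In complex V, 2 of the 3 genes for subunit c fell in WT. *Atp5g1* was 259, 216 and 266 CPM in NK1.1- and 187, 173 and 159.9 CPM in NK1.1+ libraries of WT (log2 fold change -0.54 with a standard error of 0.13, edgeR adjusted p = 0.0105) and 228, 219 and 218 CPM and 166, 167 and 184 CPM in miR-155KI (log2 fold change -0.37, adjusted p = 0.0445 from edgeR). *Atp5g3* was 205, 193 and 221 CPM and 156, 156 and 141 CPM in WT (log2 fold change -0.48, adjusted p = 0.0131 from edgeR) and 169, 165 and 158 CPM and 120.4, 134 and 124 CPM in miR-155KI (log2 fold change -0.38, adjusted p = 0.0506). *Atp5g2* was not called in either genotype (log2 fold change -0.23 in WT and -0.25 in miR-155KI). Whether the 3 genes differ from each other was not tested. The β subunit *Atp5b*, which makes the ATP, was 1317, 1265 and 1400.1 CPM against 1109, 1008 and 926 CPM in WT (log2 fold change -0.42, adjusted p = 0.0286 from edgeR), and the α subunit *Atp5a1* was 892, 875 and 1056 CPM against 754, 793 and 735 CPM (log2 fold change -0.34, adjusted p = 0.0698 from edgeR).

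**Figure D3:**
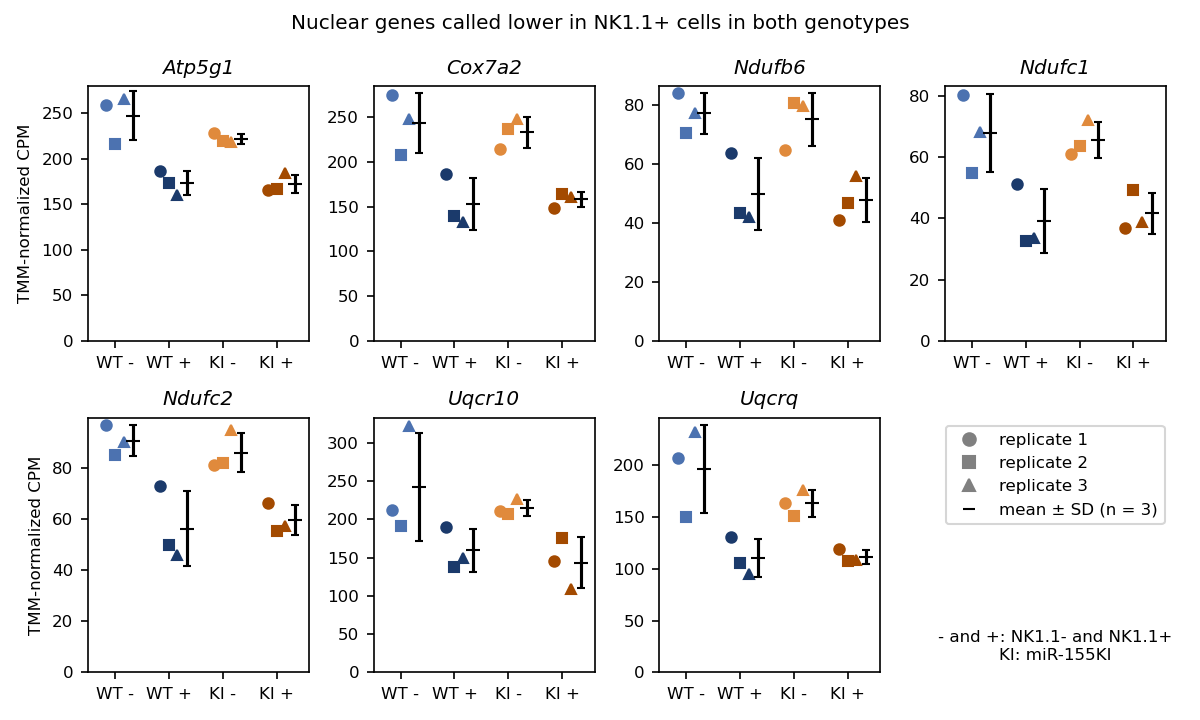
TMM-normalized CPM (y axes) in each of the 12 libraries for the 7 nuclear genes called lower in NK1.1+ cells in both genotypes, with the mean and SD of 3 libraries per group and a symbol per replicate number. In each panel the NK1.1+ libraries of a genotype lie below its NK1.1- libraries.

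In miR-155KI mice the same comparison of pools gave fewer calls. Of the 76 nuclear genes, 67 had a fitted fold change below 0 and 7 were called lower by edgeR (6.15% of all genes tested), with a median log2 fold change of -0.18 against 0.031 for all genes. DESeq2 called 9 and limma-voom 8, where they called 8.2 and 7.36% of all genes tested lower. The 7 were *Atp5g1*, *Cox7a2*, *Ndufb6*, *Ndufc1*, *Ndufc2*, *Uqcr10* and *Uqcrq*, which encode subunits of complexes I, III, IV and V, and all were among the 23 of WT (100% of the 7 and 30.4% of the 23). *Uqcr10* was 210.2, 207 and 227 CPM in NK1.1- and 146, 176 and 108 CPM in NK1.1+ libraries of these mice (log2 fold change -0.58 with a standard error of 0.17, edgeR adjusted p = 0.0444). At an unadjusted p under 0.05, 23 were lower (12.7% of all genes tested), and 31 did not overlap, all NK1.1+ libraries being below all NK1.1- libraries (17.1% of all genes tested). In 18 genes this held in both genotypes, as it did for 9.9% of all genes tested in both. Without single libraries the count was 1, 2 and 0 (NK1.1- replicates 1, 2 and 3 left out, with 2.42, 2.88 and 2.3% of all genes called lower) and 11 and 3 (NK1.1+ replicates 2 and 3 left out, with 6.05 and 4.56%), and none of the 7 genes was called in all 6 fits. Among the fits with these counts, only that without NK1.1+ replicate 2 called a larger share of the 76 than of all genes. The macrophage and dendritic cell markers summed to 251 to 293 CPM in NK1.1- and 368 to 1028 CPM in NK1.1+ libraries of these mice (10 of 11 tested with a fold change above 0), the double-positive thymocyte markers to 62.6 to 87.4 and 70.1 to 328 CPM (7 of 7), the B cell markers to 103 to 164 and 262 to 317 CPM (4 of 7) and the erythroid markers to 19.0 to 315 and 35.9 to 1214 CPM (4 of 4). Their part in the fold changes was not tested.

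Whether the fall differed between genotypes was tested as an interaction. Of 76 nuclear genes, 65 had a more negative fold change in WT than in miR-155KI, but edgeR called 0 for the difference between genotypes (0.0278% of all genes tested), and so did DESeq2 and limma-voom. At an unadjusted p under 0.05, 2 genes were higher in the interaction (4.36% of all genes tested), both accessory subunits of complex I. These were *Ndufs5* (0.58 with a standard error of 0.24, edgeR adjusted p = 0.561) and *Ndufab1* (0.45, standard error 0.19, adjusted p = 0.563), which is also the acyl carrier protein and was named after its values were seen. The median interaction over the 76 genes was 0.11 (log2), between 0.035 and 0.26 when a library was left out.

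Other gene groups of the cell are read against the shares of all genes called between the WT pools, 10.9% lower and 9.89% higher. Of 77 mitochondrial ribosomal proteins, which translate the 13 mitochondrial messages, 13 were called lower (16.9%) and 0 higher by edgeR, and 27 lower with the replicate block, where 15.2% of all genes were (median log2 fold change -0.32), and of 46 assembly factors of the chain 6 were lower, 13% and so near the share of all genes (-0.19). Of 18 genes of the citrate cycle and pyruvate dehydrogenase 4 were lower, 22.2% (-0.13), namely *Cs*, *Idh2*, *Idh3a* and *Mdh2*, and of 19 of glycolysis 9 were lower, 47.4% (-0.62). Cytosolic ribosomal proteins had a median near that of all genes, with 4 lower (among them *Rps19bp1*, which its symbol alone puts in the list) and 1 higher (*Rps27*) of 85 (-0.029). In miR-155KI, where 6.15% of all genes were called lower and 7.92% higher, 3 mitochondrial ribosomal proteins of 77 (*Mrpl36*, *Mrpl52* and *Mrps6*, median -0.13), 0 assembly factors of 45 (-0.14), 2 citrate cycle genes (*Cs* and *Suclg1*, -0.0079), 5 glycolytic genes (-0.38) and 6 cytosolic ribosomal proteins of 86 (-0.16) were lower. Of the 45 assembly factors, 5 were lower there at an unadjusted p under 0.05, where 12.7% of all genes tested were. Genes that keep and transcribe mitochondrial DNA went either way in WT, with 2 higher (*Dguok* and *Rrm2b*, which supply its nucleotides) and 1 lower (*Elac2*, a tRNA-processing nuclease) of 30, with the block 3 higher and 3 lower, and in miR-155KI 3 were higher (*Dguok*, *Ssbp1* and *Tk2*). These single genes, and those of the next paragraph, were named after their values were seen.

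Among 17 carriers and further subunits outside the symbols used here, the change with the smallest p was that of *Atpif1*, whose protein inhibits the ATP synthase when it would run backwards. It was 82.1, 72.7 and 89.5 CPM in WT NK1.1- and 38.1, 28.9 and 25.5 CPM in WT NK1.1+ libraries (log2 fold change -1.43 with a standard error of 0.17, edgeR adjusted p = 0.000167), without overlap, and 99.1, 85.2 and 104 CPM and 89.0, 39.9 and 49.4 CPM in miR-155KI (log2 fold change -0.70, adjusted p = 0.111 from edgeR). In WT NK1.1+ cells *Coq7*, an enzyme of ubiquinone synthesis, was also lower (log2 fold change -1.0, adjusted p = 0.0123 from edgeR) and *Coq8a*, which regulates that synthesis, was higher (0.84, adjusted p = 0.0137), and in miR-155KI NK1.1+ cells *Usmg5*, a small subunit of the ATP synthase, was lower (-0.49, adjusted p = 0.0261).

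**Figure D4:**
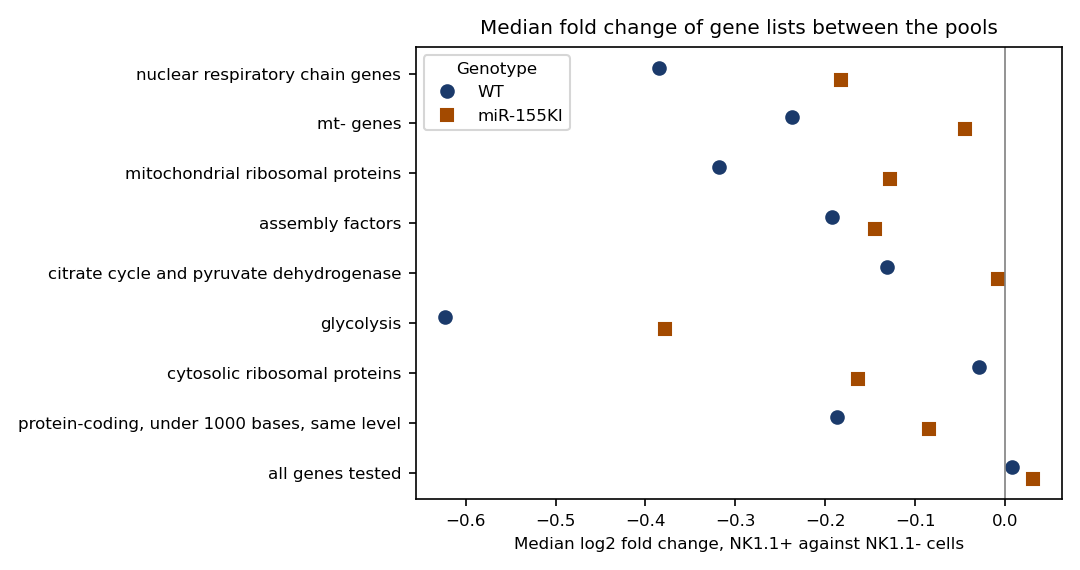
Median log2 fold change between NK1.1+ and NK1.1- cells (x axis) of the nuclear and mitochondrial genes of the chain and of other gene lists, in WT and in miR-155KI. In WT the nuclear genes of the chain lie at -0.38, between the glycolytic genes at -0.62 and the cytosolic ribosomal proteins at -0.029.

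3 measured features moved along with the pools, and the part of each in the fall was not tested. The first is transcript length. Nuclear genes of the chain are short, with a median transcript of 746 bases against 2315 for all protein-coding genes, and protein-coding genes of 5 CPM or more with transcripts under 1000 bases had a median log2 fold change of -0.19 in WT, those of 2000 bases or more 0.068. In the chain these medians were -0.42 for 48 genes under 1000 bases, -0.37 for 19 of 1000 to 2000 bases and -0.30 for 7 longer ones. Lengths are medians over annotated transcripts, which put *Atp5g1*, *Ndufab1* and *Ndufb2* among the longer ones (2675.5, 2447.5 and 2413 bases). The second is *Mki67*, a gene of dividing cells chosen after its values were seen, at 117, 60.8 and 90.2 CPM in WT NK1.1- and 20.3, 29.9 and 14.6 CPM in WT NK1.1+ libraries, and at 77.5, 69.5 and 102 CPM and 56.0, 18.8 and 17.6 CPM in miR-155KI. The third is RNA of other cells. The summed level of 14 macrophage and dendritic cell markers was 172 to 327 CPM in WT NK1.1- and 129 to 157 CPM in WT NK1.1+ libraries (9 of 11 tested with a fold change below 0), and that of 9 double-positive thymocyte markers was 60.7 to 106 CPM and 41.5 to 54.2 CPM (all 7 tested below 0). The 12 B cell markers summed to 159 to 302 CPM and 241 to 297 CPM (7 of 10 tested below 0). No marker of these lists was at 0 in a whole group.

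Regulators of the chain were called higher in WT NK1.1+ cells in 2 of 13 cases (15.4%, against 9.89% of all genes tested) and lower in 0 by edgeR (1 lower at an unadjusted p under 0.05, *Hif1a*, which was called with the replicate block at an adjusted p of 0.00741). These were *Gabpb2*, a subunit of GABP named after its values were seen (log2 fold change 0.43, adjusted p = 0.0273 from edgeR), and *Ppargc1b*. *Ppargc1b*, a coactivator of mitochondrial genes, was 11.6, 19.4 and 17.5 CPM in NK1.1- and 23.7, 24.5 and 32.2 CPM in NK1.1+ libraries of WT (log2 fold change 0.69 with a standard error of 0.22, edgeR adjusted p = 0.0464). In miR-155KI it was 16.7, 17.4 and 17.2 CPM and 23.0, 42.4 and 32.8 CPM (log2 fold change 0.94 with a standard error of 0.26, edgeR adjusted p = 0.0373). It was thus called in the direction opposite to the subunits in both genotypes. *Hif1a*, a factor that favors glycolysis, was 152, 209.7 and 156 CPM and 107, 133 and 139 CPM in WT and 159, 162 and 145 CPM and 84.5, 80.4 and 101 CPM in NK1.1- and NK1.1+ libraries of miR-155KI, where it was called lower (log2 fold change -0.81, adjusted p = 0.00319 from edgeR). *Ppargc1a* had too few counts to be tested in any comparison. *Nrf1* (-0.27), *Gabpa* (-0.14), *Yy1* (-0.26), *Esrra* (0.36) and *Myc* (0.034) had log2 fold changes that were not called in WT, with adjusted p between 0.257 and 0.951 from edgeR, as did *Tfam*, which packs and transcribes mitochondrial DNA (-0.31, adjusted p = 0.120), and its polymerase *Polrmt* (-0.22, adjusted p = 0.356). Cytochrome c itself, *Cycs*, was 38.7, 34.5 and 36.6 CPM against 32.5, 28.7 and 20.4 CPM in WT (log2 fold change -0.46, adjusted p = 0.107 from edgeR and 0.0308 with the block), and cytochrome c1, *Cyc1*, a catalytic subunit of complex III whose symbol lies outside the rule, had -0.31 (adjusted p = 0.166).

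The effect of miR-155 overexpression was then compared within each pool. In NK1.1- cells, edgeR called 0 of the 76 nuclear genes between miR-155KI and WT, where 3.44% of all genes tested were called in either direction. The fitted fold change was below 0 for 62 genes, with a median log2 fold change of -0.068 and a range from -0.42 to 0.31. At an unadjusted p under 0.05, 9 were lower (9.43% of all genes tested) and 0 higher (9.03%). DESeq2 called 1, *Atp5g3*, and limma-voom 0, where 3.6 and 1.18% of all genes tested were called lower. *Atp5g3* was 169, 165 and 158 CPM in miR-155KI against 205, 193 and 221 CPM in WT (log2 fold change -0.35 with a standard error of 0.10, edgeR adjusted p = 0.0786), and *Uqcrfs1* was 117, 109 and 142 CPM against 149, 151 and 184 CPM (log2 fold change -0.42 with a standard error of 0.13, edgeR adjusted p = 0.0926). These had the smallest p among the 76. Without WT NK1.1- replicate 1, 2 of the 76 were called, 1 higher and 1 lower, where 369 of all 13809 genes tested were called higher and 548 lower. With the ratio of Y-linked to *Xist* counts as a covariate, 0 were called. Core subunits of the other complexes had log2 fold changes of -0.061 for *Ndufs1*, -0.017 for *Sdha*, -0.19 for *Cox4i1* and -0.20 for *Atp5b*, and adjusted p between 0.276 and 0.952 from edgeR.

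Of the regulators, *Gabpb1*, a subunit of GABP named after its values were seen, was called lower in miR-155KI NK1.1- cells, at 41.9, 46.6 and 51.8 CPM against 59.8, 94.9 and 68.9 CPM (log2 fold change -0.70 with a standard error of 0.17, edgeR adjusted p = 0.0463).

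The genes with an 8-base match to the miR-155 seed were not called in either pool. *Uqcr11*, a small subunit of complex III, was 90.1, 92.8 and 98.0 CPM in miR-155KI and 127, 94.9 and 141 CPM in WT NK1.1- libraries (log2 fold change -0.39 with a standard error of 0.13, edgeR adjusted p = 0.139), and in NK1.1+ cells the log2 fold change was -0.085 (adjusted p = 0.908). *Ndufb5*, a membrane subunit of complex I, had log2 fold changes of -0.021 and 0.16 in NK1.1- and NK1.1+ cells, and *Ndufs1* had -0.061 and -0.065.

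In NK1.1+ cells, the nuclear genes were spread to both sides of WT and none passed the test. edgeR called 0 of 76 (0.0231% of all genes tested), as did DESeq2 and limma-voom, and the median log2 fold change was 0.033, with 48 genes above 0 and 28 below. At an unadjusted p under 0.05, *Ndufs5* was higher (log2 fold change 0.45, edgeR adjusted p = 0.384), where 5.24% of all genes tested were higher at that p, and *Atp5d*, the δ subunit of the ATP synthase, was lower (log2 fold change -0.35, edgeR adjusted p = 0.387), where 6.6% were lower. *Atp5d* was named after its values were seen.

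The mitochondrial genes were higher in level in miR-155KI than in WT NK1.1+ cells, without a call. All 13 lay above WT in their mean, with a median log2 fold change of 0.35 against 0.022 for all genes, and 0.27 to 0.44 when a library was left out. edgeR, DESeq2 and limma-voom each called 0 of the 13, 8 had an unadjusted p under 0.05 (5.24% of all genes tested), and in 7 all miR-155KI libraries lay above all WT libraries (8.47% of all genes tested). Because these genes share their transcripts, they are not 13 separate measurements. Of these libraries, *Xist* was high in WT replicates 2 and 3 alone. Their mitochondrial shares were 1.34 and 1.39%, against 1.59% in WT NK1.1+ replicate 1, and genotype and sex cannot be fully told apart. *mt-Co1*, the catalytic subunit of complex IV, was 5286, 4634 and 6258 CPM in miR-155KI and 4339, 2992 and 3754 CPM in WT libraries (log2 fold change 0.53 with a standard error of 0.16, edgeR adjusted p = 0.272). *mt-Cytb*, the electron carrier of complex III, was 2601, 2247 and 2759 CPM against 1998, 1819.5 and 1759 CPM (log2 fold change 0.43 with a standard error of 0.13, edgeR adjusted p = 0.269), and *mt-Nd1*, a membrane subunit of complex I, was 1709, 1305 and 1556 CPM against 1221, 1052 and 1000.1 CPM (log2 fold change 0.47 with a standard error of 0.14, edgeR adjusted p = 0.272). miR-155KI replicate 2 was the lowest of its group in all 3, and the groups did not overlap. *mt-Co3*, *mt-Co2*, *mt-Nd4* and *mt-Nd3* also did not overlap (log2 fold changes 0.40, 0.35, 0.35 and 0.22), whereas *mt-Atp6*, *mt-Atp8*, *mt-Nd2*, *mt-Nd5*, *mt-Nd6* and *mt-Nd4l* did (0.38, 0.33, 0.35, 0.20, 0.28 and 0.13).

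**Figure D5:**
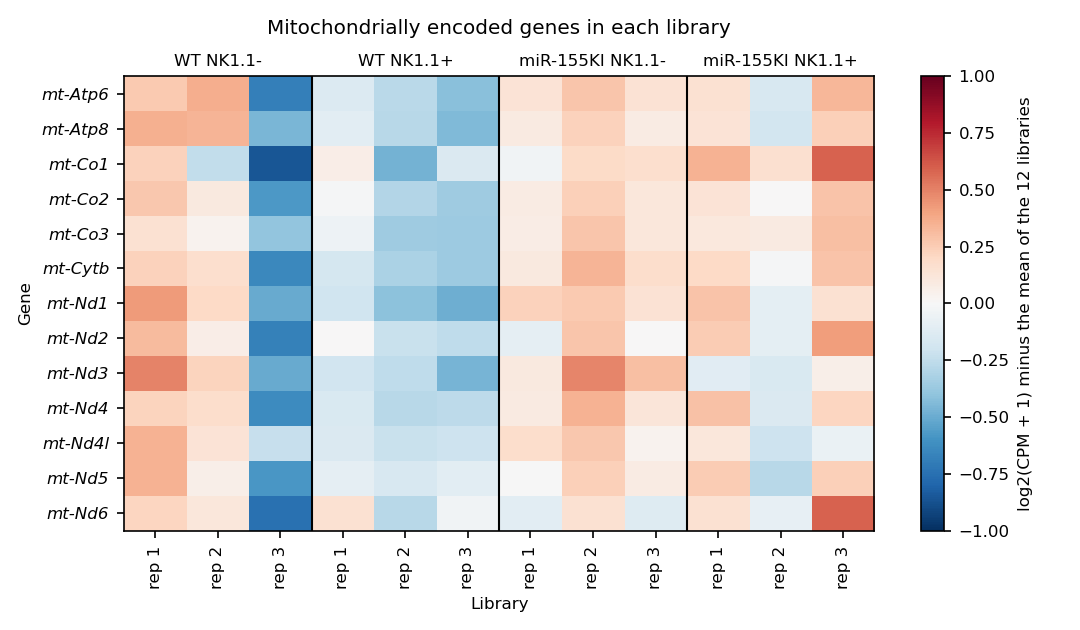
Color map of the 13 mitochondrial genes (rows) in the 12 libraries (columns), by group. Color gives log2(CPM + 1), from TMM-normalized CPM, minus the mean of that gene over the 12 libraries. WT NK1.1- replicate 3 is lowest for every gene, and the miR-155KI NK1.1+ libraries lie above the WT NK1.1+ libraries in 7 genes.

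Those miR-155KI NK1.1+ libraries also held more RNA of macrophage and double-positive thymocyte markers. The 14 macrophage and dendritic cell markers summed to 486, 1028 and 368 CPM in miR-155KI replicates 1, 2 and 3 and to 129 to 157 CPM in WT NK1.1+ libraries (11 of 12 tested with a fold change above 0). The mitochondrial shares of these miR-155KI replicates were 2.17, 1.64 and 2.17%. The 9 double-positive thymocyte markers summed to 328, 70.1 and 113 CPM in miR-155KI replicates 1, 2 and 3 and to 41.5 to 54.2 CPM in WT (8 of 8 tested above 0). The genotypes overlapped for the 5 erythroid markers, at 37.5, 35.9 and 1214 CPM against 27.4, 24.1 and 183 CPM. They also overlapped for the 12 B cell markers, at 262 to 317 and 241 to 297 CPM (6 of 8 tested above 0). *Lyz2*, a lysozyme of macrophages named after its values were seen, was 144, 41.4 and 13.5 CPM against 3.97, 3.50 and 4.30 CPM. The part of these markers' cells in the mitochondrial levels was not tested. No marker of these lists was at 0 in a whole group.

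In NK1.1- cells, the mitochondrial genes overlapped between genotypes. edgeR, DESeq2 and limma-voom called 0 of 13 and 0 had an unadjusted p under 0.05, with 12 fitted fold changes above 0 and a median log2 fold change of 0.11, which became -0.11 without WT NK1.1- replicate 3 and 0.30 without WT NK1.1- replicate 1. *mt-Co1* was 4062, 4744 and 4663 CPM in miR-155KI and 4863, 3498 and 2293 CPM in WT (log2 fold change 0.32 with a standard error of 0.25, edgeR adjusted p = 0.574). For the difference between the pools in the effect of genotype, all 13 were above 0, with a median of 0.21 (log2) and 0.02 to 0.43 when a library was left out, and edgeR, DESeq2 and limma-voom called 0, with 0 at an unadjusted p under 0.05.

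Between the pools, calls among the mitochondrial genes of WT depended on the fit and the libraries. In WT, 11 of 13 were lower in level in NK1.1+ than in NK1.1- libraries (median log2 fold change -0.24), and edgeR, DESeq2 and limma-voom called 0, with 1 at an unadjusted p under 0.05. That gene, *mt-Nd1*, was 1881, 1608 and 989 CPM in NK1.1- and 1221, 1052 and 1000.1 CPM in NK1.1+ libraries (log2 fold change -0.48, adjusted p = 0.138 from edgeR). Without WT NK1.1- replicate 3, the library with low mitochondrial RNA, 7 were called lower, where 7.3% of all genes were (*mt-Atp6*, *mt-Atp8*, *mt-Cytb*, *mt-Nd1*, *mt-Nd3*, *mt-Nd4* and *mt-Nd4l*) and the median was -0.47. With the replicate number as a block, 3 were called lower, where 15.2% of all genes were (*mt-Atp8*, *mt-Nd1* and *mt-Nd3*). *mt-Co1* (0.026) and *mt-Nd6* (0.0053) were the genes with a fold change above 0. In miR-155KI, 8 of 13 were lower in level with a median of -0.044, no tool called any, and 1 had an unadjusted p under 0.05. That was *mt-Nd3*, a membrane subunit of complex I, at 101, 134 and 117 CPM in NK1.1- and 87.8, 85.4 and 98.7 CPM in NK1.1+ libraries (log2 fold change -0.37, adjusted p = 0.110 from edgeR). The mitochondrial ribosomal RNAs *mt-Rnr1* and *mt-Rnr2* were listed at 0 and give no second measure of these transcripts.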

How the data were processed

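RNA-seq of 12 libraries was used. The deposited files hold counts, in whole numbers, and a signal table in CPM that the authors had scaled from them by 1 factor per library. The submitters' processing notes name bcl2fastq 2.17.1.14 and the builds GRCm38 and mm10. The aligner and counting program are not given in the sources used here. In the tables, 27 gene names had been turned into dates, and 0 columns belonged to no sample. Library depth limits the precision of low genes only, since all members had a mean above 5 CPM.

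Counts were fitted in R 4.3.3 with edgeR 4.0.16 (TMM, default filter on low counts, robust quasi-likelihood test) over all genes, each comparison on its own 6 libraries and the interaction on all 12, with Benjamini-Hochberg adjustment over all genes tested and a threshold of 0.05. DESeq2 1.42.0, limma 3.58.1 (voom), other scalings and filters, a replicate block, a sex-linked covariate and each library left out in turn were alternatives. Python 3.11.15, pandas 2.3.3 and matplotlib 3.10.9 served for tables and figures, and the fits were tested on simulated data. Replicate numbers come from the sample titles. In WT, deviations from the group mean were correlated between same-numbered libraries of the pools (r = 0.374, 0.267 and 0.162), so the numbers were taken to pair the WT pools. The values reported come from the fit without the block, and the block is given beside them where it changes a call.

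Genes named with values are the mitochondrial genes, the 5 with the smallest p among those called per comparison and direction, core subunits of each complex, tissue isoforms, and listed regulators. Other genes are said to be named after their values were seen. The members and lists were chosen with earlier results of these data known. Some items that this rule would name are not reported here.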

Additional observations from a re-analysis of the deposited data

How the results depend on the processing

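The number of nuclear genes called lower between the WT pools, 23 in the fit reported, was 37 with scaling to library size alone, 42 with the replicate block and 46 with the sex-linked covariate, while the share of all genes called lower went from 10.9% to 13.1, 15.2 and 16.2%, and it ran from 2 to 46 when a library was left out. For the mitochondrial genes in that comparison, 0 became 1 without a filter on low counts, 3 with the replicate block and 1 with the covariate. In these fits 5.36, 15.2 and 16.2% of all genes were called lower. When a library was left out, the count was 0 to 7, the 7 without NK1.1- replicate 3, where 7.3% of all genes were called lower. Between the miR-155KI pools, 7 nuclear genes (6.15% of all genes) became 23 with library size alone (7.56%) and 14 with at least 10 counts in every library (7.19%), with 0 to 11 when a library was left out. Between genotypes in NK1.1- cells, 0 nuclear genes became 1 with DESeq2 and 1 with the replicate block, with 0 to 2 when a library was left out. Of all genes, DESeq2 called 505 higher and 455 lower of 12631, and the block 365 and 372 of 13304. Without WT NK1.1- replicate 1, the fit with 2 calls, these numbers were 369 and 548 of 13809. The nuclear share in miR-155KI NK1.1- cells was 1.63% with mitochondrial rows out of the total. The replicate numbers were not taken to pair the miR-155KI pools (r = 0.134, 0.0915 and 0.0704) or the genotypes (r from -0.0517 to 0.204), and the block changed no other count of calls. No cut-off on r was set, and the highest r between genotypes lay above the lowest between the WT pools (0.162). The cause of these shifts was not tested. No result changed its direction past the threshold. Changes well under the smallest called ones cannot be seen with 3 libraries per group.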
